A study of Mus musculus with 48 samples.

Results

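The genes described here set how much iron leaves cells for the blood: the 2 mouse hepcidin genes Hamp and Hamp2, the upstream signal genes Bmp6, Hfe and Tfr2, the BMP target genes Id1 and Smad7, the uptake receptor gene Tfrc, the export gene Slc40a1 and the carrier gene Trf. They are 10 listed genes among 22180 that had a probe set of their own on the array. Each was read from its probe set with a single gene symbol and the highest mean, and 9 of the 10 had one. The probe set of Trf, which encodes transferrin, was shared with Srprb, so no value is given for it. Each of the 9 measured genes had 1 such probe set and was among the 16926 genes bright enough to be tested.

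Hepcidin is a peptide hormone made mainly by hepatocytes. It binds ferroportin, the iron exporter encoded by Slc40a1, and causes it to be degraded, so that iron stays in gut cells, macrophages and hepatocytes. Hamp transcription rises with liver iron through BMP6, a ligand made by liver endothelial cells that acts through SMAD proteins, with HFE and transferrin receptor 2 as further inputs, and it rises in inflammation through interleukin 6 and STAT3. Transferrin receptor 1, encoded by Tfrc, brings transferrin-bound iron into cells, and its message is stabilised when cell iron is low. Hamp2 is a neighbouring copy of Hamp for which a role in iron control has not been established.

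The data were Affymetrix expression arrays of total liver RNA from 48 mice, 1 array per mouse. Mice had eaten 1 diet freely from 3 weeks of age, were housed 3 to a cage, and gave liver at 15 months, with 1 mouse taken from each cage. Diets are named by the shares of energy that protein, carbohydrate and fat supplied, in that order. The compositions were 5/20/75, 5/48/48, 5/75/20, 14/29/57, 14/57/29, 23/38/38, 23/65/12, 33/20/47, 33/47/20, 42/29/29 and 60/20/20, at high, medium or low energy density. They formed 20 combinations of 1 to 4 mice. By protein share there were 10 mice on 5%, 9 each on 14%, 23% and 33%, 5 on 42% and 6 on 60%. By energy level, 29 ate high, 14 medium and 5 low energy diets. The 5% share occurred with high energy only, so at that share protein and energy cannot be told apart. The labels and design text used here do not name the strain, the sex of single mice or the iron content of the diets, and no sample carried a gene modification or drug in its labels.

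Values are log2 expression, so 1 unit is a doubling of signal, and levels of different genes cannot be ranked because each probe set has its own efficiency. The arrays had medians between 1.57 and 1.86. Their interquartile range, a measure of how widely the values of an array spread, lay between 2.78 and 3.63 and was widest at 5% protein (mean 3.48 ± 0.13, SD, n = 10) and lower at 14% (3.30 ± 0.17, n = 9) and 60% (3.16 ± 0.20, n = 6). In 24 arrays Xist, the RNA that silences an X chromosome, lay above the mean of 3 Y-linked genes, and in 24 the Y-linked genes lay above Xist. The 24 of each kind are called the Xist-above and Y-above arrays. Their number was 4 and 6 at 5% protein, 4 and 5 at 14%, 6 and 3 at 23%, 4 and 5 at 33%, 4 and 1 at 42%, and 2 and 4 at 60%.

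The tissue label was borne out by hepatocyte markers, with 10 of 10 above the brightness filter and albumin between 12.63 and 13.06 in every liver. Of 14 listed Kupffer cell markers 13 were measured, and these and the 14 endothelial markers were above the filter too. Bulk liver holds these cells, but passing the filter does not show it here. Fewer cells of a type and less RNA per cell cannot be told apart in such samples. Of 14 listed erythroid markers 5 were measured and 3 passed the filter.

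Hamp and Hamp2 lie next to each other on chromosome 7, with the pseudogene Usf2-ps1 between them and Usf2 beyond Hamp in the RefSeq annotation of GRCm38.p6. Their upstream regions are shown because the data below separate these copies. The stretches are RefSeq promoter sequence of GRCm38.p6, minus strand, at chr7:30944047-30944166 for Hamp (bases -137 to -18 from the start site) and chr7:30924196-30924315 for Hamp2 (bases -134 to -15). Capitals mark 3 motifs searched on both strands: the BMP response element GGCGCC, the STAT site TTCTTGGAA and the TATA-type box CATAAAA, none of which overlaps another here.
Hamp: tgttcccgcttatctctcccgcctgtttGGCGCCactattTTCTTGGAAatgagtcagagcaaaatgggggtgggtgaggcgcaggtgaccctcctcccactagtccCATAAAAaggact
Hamp2: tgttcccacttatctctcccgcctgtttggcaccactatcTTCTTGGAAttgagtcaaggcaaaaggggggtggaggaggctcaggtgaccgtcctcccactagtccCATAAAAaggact
The stretches were 90.8% identical, with 109 of 120 bases the same. Counted from 1 at the first printed base, with the Hamp base first, the differences were G8A, G32A, T40C, A50T, G58A, A59G, T66G, G75A, T76G, G82T and C92G. G32A falls within the letters of the BMP response element, which begin at -109 in Hamp and are not found in the 300 bases of the Hamp2 window. The STAT letters begin at -97 in Hamp and -94 in Hamp2, and the TATA-type letters at -30 and -27. Among 32851 promoter windows of 300 bases, 11.9% held GGCGCC, 0.417% held TTCTTGGAA and 4.19% held CATAAAA. Of the other listed genes with promoter windows in the table (Bmp6, Hfe, Tfrc and Tfr2), only a window of Tfrc held any of the 3 motifs, GGCGCC at -89. These matches describe letters only and were not tested for binding.

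The question the diets put to these genes was how their RNA changed with the dietary share of protein, carbohydrate and fat and with energy density. Hamp2 was the only one of the 9 whose RNA rose with protein past the threshold. It ran from 4.14 to 6.25 (median 5.32) in the 10 mice on 5% protein. On 14% it ran from 2.33 to 9.10 (median 5.96, n = 9), on 23% from 5.32 to 9.61 (median 8.41, n = 9), and on 33% from 4.23 to 9.76 (median 7.03, n = 9). On 42% it ran from 6.04 to 9.90 (median 9.58, n = 5) and on 60% from 4.74 to 9.91 (median 8.99, n = 6). The 5% livers were thus all below the medians of the 23% to 60% livers, while each higher share also held livers within or below the 5% range. The protein slope, meaning the log2 difference when protein gains 10 percentage points of energy and carbohydrate and fat lose 5 each, was 0.60 ± 0.17 (SE, n = 48 mice, limma adjusted p = 0.0273). Extended from 5% to 60% protein, that slope is 9.80-fold. It was the 1 call among the 9 genes, in a comparison that called 7.01% of all genes tested (1187 of 16926).

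The slope of Hamp2 and its call depended on the setting. With a term for the spread of the arrays the slope was 0.68 (adjusted p = 0.0774), with the diet combination as a random block 0.59 (adjusted p = 0.0549), and neither was a call. Without the 5% livers, in mice on 14% protein or more, it dropped to 0.39 (adjusted p = 0.796). Adjusted for the Y-linked minus Xist value it was 0.68 (adjusted p = 0.000214), and with that value and the interquartile range together 0.60 (adjusted p = 0.00678). That value itself differed by protein share within the Xist-above arrays, as given below. Without added terms the slope was called in 47 of 48 fits that left out 1 mouse. Its call was lost without High energy 60/20/20 mouse 3 (0.58, adjusted p = 0.0657).

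**Figure D1:**
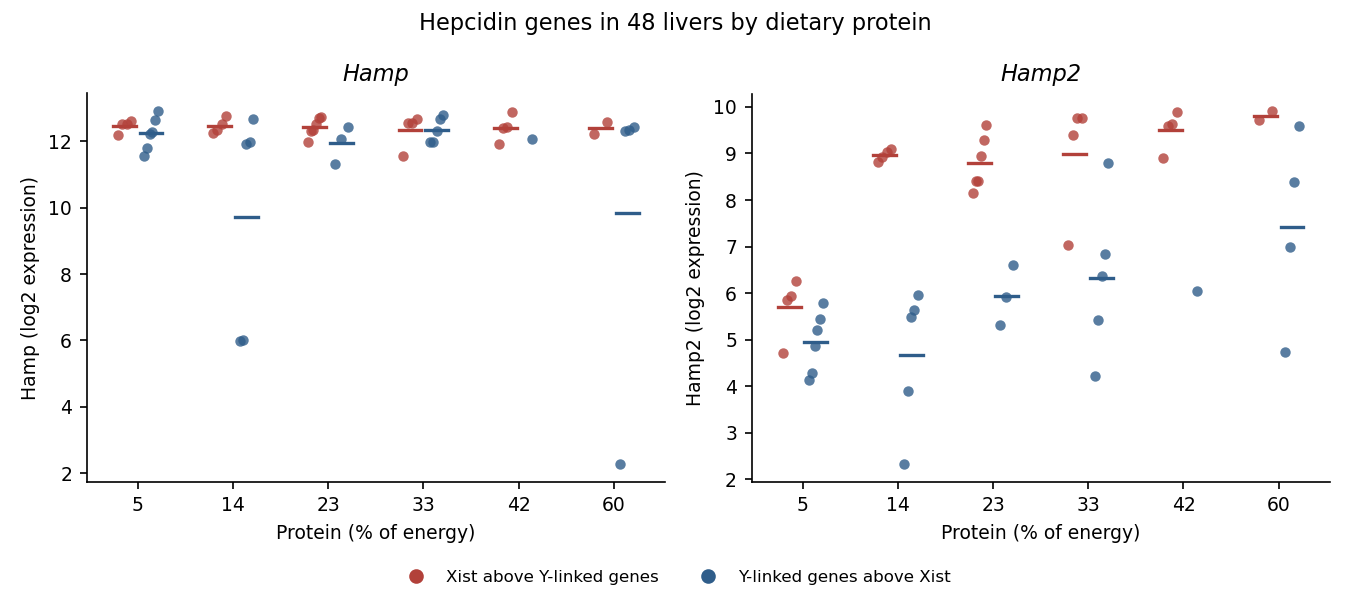
Log2 expression of Hamp (left) and Hamp2 (right) in each of 48 livers against the protein share of the diet, with Xist-above arrays in red, Y-above arrays in blue and bars for the mean of each set of 2 or more mice. For Hamp, 3 livers stand at 2.28, 5.98 and 6.02 and the other 45 between 11.31 and 12.90. Hamp2 in the Xist-above arrays lies at 4.72 to 6.25 on 5% protein and at 7.03 to 9.91 above that share. In the Y-above arrays the livers on 5% protein and on higher shares overlap. The array sets were split after the values were seen, and the share of all genes that part the livers so was not counted.

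Within the sets of arrays the protein slope of Hamp2 was 0.67 in the 24 Xist-above arrays (limma adjusted p = 0.0611) and 0.64 in the 24 Y-above arrays (adjusted p = 0.114), so neither set alone gave a call (0 of 9 genes in each, against 0.295% and 0.0827% of all genes). The lowest protein shares differed in the values themselves. In the Xist-above arrays the 4 livers on 5% protein stood at 5.86, 6.25, 4.72 and 5.95, and the 4 on 14% protein at 9.04, 8.82, 9.10 and 8.92. These groups did not overlap, and the 20 Xist-above livers on 14% or more, at 7.03 to 9.91, all lay above the 4 on 5%. The share of all genes that part these livers in this way was not counted. In the Y-above arrays the 6 livers on 5% protein ran from 4.14 to 5.80 (median 5.03), and the 5 on 14% stood at 3.91, 5.96, 5.65, 2.33 and 5.50. Here the groups overlapped, with 14% values on both sides of the 5% range. The livers at 2.33 and 3.91 held the lowest Hamp2 values of all 48 and were also low in Hamp, as described below. Those at 5.50, 5.65 and 5.96 lay above the 5% median. The Y-above arrays were not fitted without the livers at 2.33 and 3.91.

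The difference between 5% and 14% protein for Hamp2 was -3.36 ± 0.46 in the Xist-above arrays (n = 24 in the fit, limma adjusted p = 0.00119), which was the 1 call among the 9 genes in a fit that called 0.177% of genes (30). In the Y-above arrays it was 0.01 (adjusted p = 0.997), with 0 of 9 genes called against 0.0473% of genes (8). These array sets were split after the values were seen. The test of the difference itself, the change of the 5% to 14% step per unit of the Y-linked minus Xist value, was 0.30 ± 0.09 (limma, unadjusted 0.0023, adjusted p = 0.9998 in 48 mice), so it did not pass the correction over all genes. That comparison called 0% of genes (371 at an unadjusted p under 0.05). Over all 48 mice the 5% minus 14% difference was -1.47 ± 0.85 (adjusted p = 0.463), in a comparison that called 0.372% of genes (63) and 0 of the 9.

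The protein slope of Hamp did not pass the threshold. Hamp lay between 11.31 and 12.90 in 45 livers (mean 12.32 ± 0.36, SD), and 3 livers lay far below, with a gap of 5.29 between the groups. The medians were 12.40 at 5% protein, 12.26 at 14%, 12.34 at 23%, 12.55 at 33%, 12.41 at 42% and 12.31 at 60%, so the shares differed by less than the spread within any of them. Its protein slope was 0.09 ± 0.17 (adjusted p = 0.769), with a 95% interval from -0.26 to 0.43. That fit held all 48 livers, the 3 low ones among them, as did the other fits of Hamp on diet and energy below. With 1 mouse left out the slope ran from -0.0012 to 0.19. No slope was fitted in the 45 livers alone, so the interval describes the 2 groups together. Its probe set stood at percentile 99.79 of all probe set means, and whether signal that high is compressed, which would bear on this slope and on its difference from Hamp2, was not tested.

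Of the BMP arm upstream of and around Hamp, no gene passed. Bmp6, the iron-induced ligand, ran from 4.07 to 5.67 on 5% protein (median 4.95) and from 2.47 to 4.79 on 60% (median 4.33), with a slope of -0.05 ± 0.06 (adjusted p = 0.590). Id1, a transcription regulator and early BMP target, ran from 3.58 to 4.88 on 5% (median 4.36) and from 2.15 to 3.78 on 60% (median 3.20). Its slope was -0.15 ± 0.07 (adjusted p = 0.153), and it passed without Medium energy 42/29/29 mouse 2, which held the highest Id1 value of 5.81 (-0.18, adjusted p = 0.0456). Smad7, an inhibitor that BMP and TGF-beta signals induce, ran from 4.20 to 5.77 on 5% (median 5.14) and from 3.43 to 4.70 on 60% (median 4.21), with a slope of -0.12 ± 0.07 (adjusted p = 0.260). In each of the 3 genes the 5% and 60% livers overlapped.

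The genes that read transferrin differed little with protein. Tfr2, the hepatocyte sensor of transferrin-bound iron, had medians of 9.40 at 5% and 9.61 at 60% and a slope of -0.01 ± 0.03 (adjusted p = 0.914, 95% interval -0.07 to 0.06). Hfe, the partner whose loss causes hereditary iron overload, had medians of 6.92 and 7.25 and a slope of 0.07 ± 0.04 (adjusted p = 0.282).

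Uptake and export were also below the threshold. Tfrc ran from 4.65 to 5.81 on 5% protein (median 4.96) and from 4.60 to 7.40 on 60% (median 5.63), and its slope was 0.03 ± 0.06 (adjusted p = 0.821). Slc40a1, the exporter that hepcidin removes from the cell surface, ran from 8.14 to 9.14 on 5% (median 8.63), from 7.65 to 9.11 on 14% (median 8.65) and from 6.94 to 8.39 on 60% (median 7.89). Its slope of -0.10 ± 0.04 (adjusted p = 0.133) was called only with array weights (-0.12, adjusted p = 0.0366). These are RNA levels, and the removal of ferroportin by hepcidin acts on the protein.

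**Figure D2:**
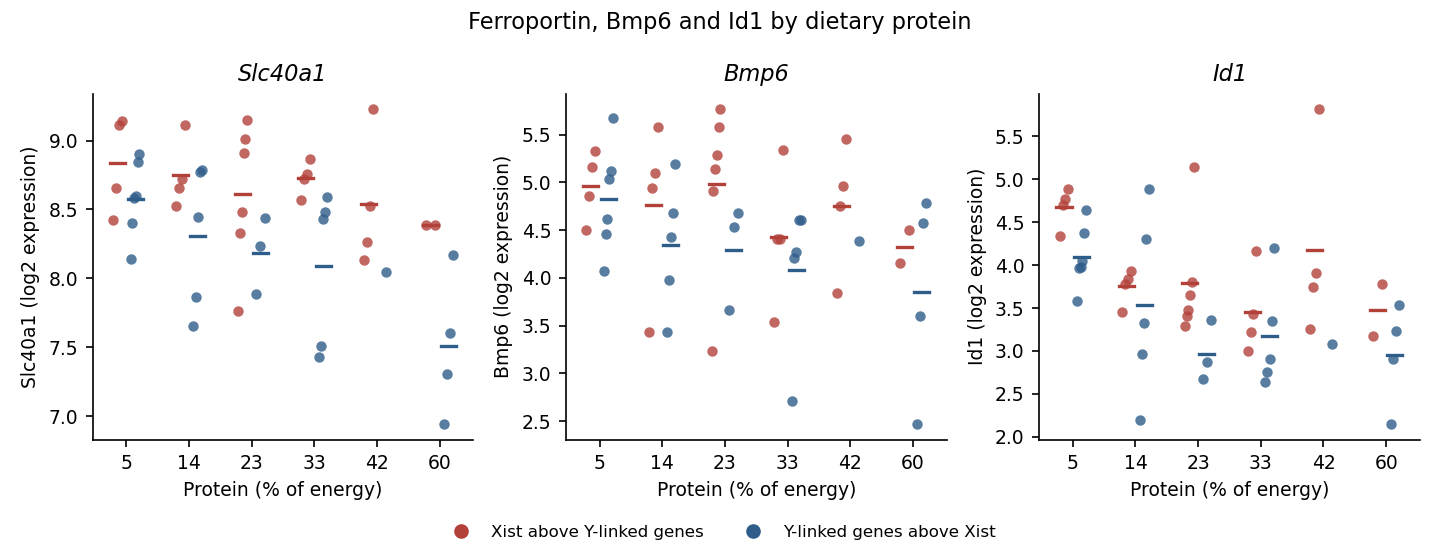
Log2 expression of Slc40a1, Bmp6 and Id1 in each of 48 livers against the protein share, with Xist-above arrays in red, Y-above arrays in blue and bars for means of 2 or more mice. Each gene overlaps between 5% and 60% protein, and none of the 3 protein slopes (-0.10, -0.05 and -0.15) passed the threshold.

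**Figure D3:**
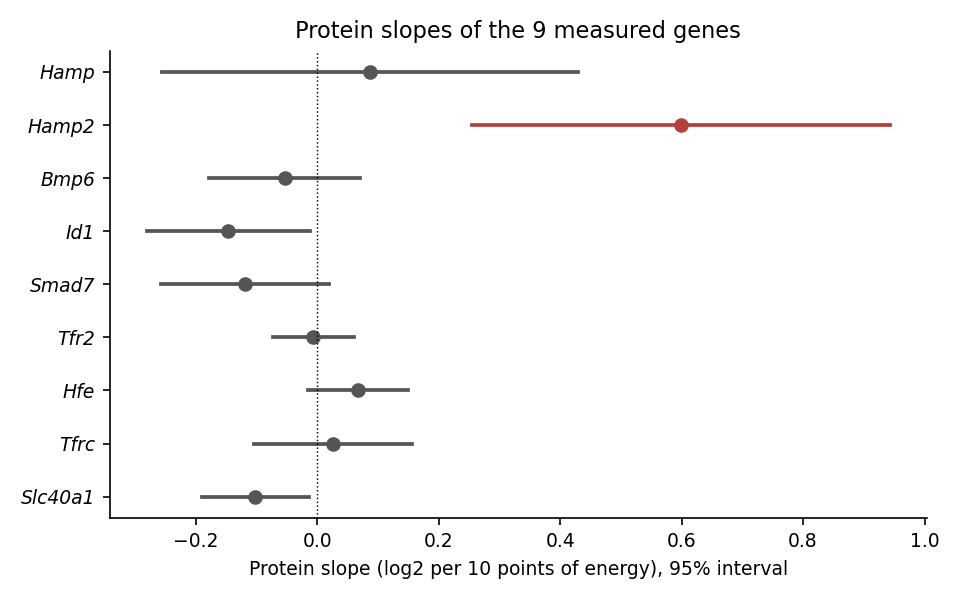
Protein slope of each of the 9 measured genes (log2 change per 10 points of energy, points) with its 95% interval (lines) in the model of 48 mice. Hamp2 at 0.60 is drawn in red as the gene past the adjusted threshold, and the other 8 slopes lie between -0.15 and 0.09.

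Set against each other within the same arrays, Hamp2 parted from all the rest. Its slope exceeded that of Hamp by 0.51 ± 0.16 (ordinary least squares on the difference per mouse, n = 48, adjusted p = 0.00713 over 15 pairs). The differences from the other 7 genes lay between 0.53 for Hfe (adjusted p = 0.0166) and 0.74 for Id1 (adjusted p = 0.000738), so 8 of 8 passed. Because Hamp2 enters all 8, they are not separate evidence. The slope of Hamp was not separated from that of any of the other 7 genes over all 48 mice (0 of 7). With 1 mouse left out, its differences from Slc40a1, Id1 and Smad7 were each called in 1 of 48 fits. Its difference from Bmp6 was 0.14 (95% interval -0.20 to 0.48) and from Slc40a1 0.19 (-0.15 to 0.53), and both intervals include differences in either direction.

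Whether protein replaced carbohydrate or fat was asked next. With protein replacing fat, Hamp2 rose by 0.69 ± 0.20 per 10 points (limma adjusted p = 0.0399), the 1 call of 9, where 4.25% of genes were called. That call was present in 34 of 48 fits that left out 1 mouse, and it was lost with the interquartile range, with the random block, in the high energy diets alone, on 14% protein or more alone and without the single Medium energy 14/29/57 mouse. With protein replacing carbohydrate 0 of 9 genes were called, where 1.55% of all genes were. There Hamp2 had a slope of 0.51 ± 0.19 (adjusted p = 0.125), Id1 -0.20 ± 0.07 (adjusted p = 0.127) and Bmp6 -0.14 ± 0.07 (adjusted p = 0.221). Adjusted for the Y-linked minus Xist value, Hamp2 did pass (0.57, adjusted p = 0.0115).

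Exchanging carbohydrate for fat at constant protein called 0 of the 9 genes and 0% of all genes by limma (665 of 16926 at an unadjusted p under 0.05). Bmp6 stood lowest in p, with 0.18 ± 0.07 per 10 points moved from fat to carbohydrate (unadjusted 0.0111, adjusted p = 0.999, 48 mice, limma). By carbohydrate share its values ran from 2.47 to 5.34 (median 4.50, n = 13) at 20%, from 3.24 to 5.77 (median 4.54, n = 17) at 29% to 38%, and from 4.07 to 5.67 (median 4.90, n = 18) at 47% or more. The ranges overlapped, and the low values were those missing from the high carbohydrate livers. Hamp ran from 11.81 to 12.90 (median 12.52, n = 18) at 47% carbohydrate or more, and all 3 low livers ate 20% or 29% carbohydrate. Its exchange slope was 0.31 ± 0.19 (adjusted p = 0.999). By fat share, Hamp2 ran from 4.23 to 9.91 (median 7.69, n = 16) at 12% to 20%, from 5.32 to 9.90 (median 8.66, n = 16) at 29% to 38%, and from 2.33 to 9.76 (median 5.91, n = 16) at 47% or more. Its exchange slope was 0.17 ± 0.19 (adjusted p = 0.999).

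Energy density gave no call among these genes. High minus medium energy called 0 of 9 and 0% of genes (1376 at an unadjusted p under 0.05). Tfrc ran from 4.20 to 6.09 (median 4.99, n = 29) on high energy and from 3.90 to 7.52 (median 5.47, n = 14) on medium energy, a difference of -0.49 ± 0.23 (limma adjusted p = 0.577). The ranges overlapped. The other 8 differences lay between -0.44 for Hamp2 and 0.38 for Hamp.

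Low and high energy were tested at 60/20/20, with 3 mice each. They also met at 23/38/38, with 1 low energy liver (Hamp 11.99) and 3 high energy livers (12.06, 12.41 and 12.74), and at 42/29/29, with 1 liver each (11.91 and 12.07), which were not tested on their own. For Hamp the low energy livers stood at 2.28, 12.30 and 12.23 and the high energy livers at 12.33, 12.57 and 12.44. All 3 low energy values lay below all 3 high energy ones, but 2 of them by little. For Tfrc the low energy livers stood at 7.40, 7.02 and 4.88 and the high energy livers at 4.60, 5.18 and 6.09, and these overlapped. For Bmp6 the values were 2.47, 3.60 and 4.15 against 4.57, 4.50 and 4.79, with no overlap. How many of all genes part low from high energy livers in this way was not counted. Low minus high energy was -3.51 ± 1.42 for Hamp (adjusted p = 0.438), 1.14 ± 0.51 for Tfrc (adjusted p = 0.464) and -1.21 ± 0.49 for Bmp6 (adjusted p = 0.438). By limma 0 of 9 genes and 0% of all genes were called (1710 at an unadjusted p under 0.05). Without Low energy 60/20/20 mouse 1 the difference was -0.18 for Hamp, -0.74 for Bmp6 and 0.66 for Tfrc. Without Low energy 60/20/20 mouse 3 it was 1.92 for Tfrc.

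Several of these genes moved with the Y-linked minus Xist value of the array. That value, the mean of the 3 Y-linked genes minus Xist on the log2 scale, lay between 2.48 and 4.88 in the Y-above arrays and between -8.49 and -3.55 in the Xist-above arrays, and it was added to the model after the values were seen. Within the Xist-above arrays it also differed by protein share. It lay between -8.39 and -7.08 on 5% protein, between -7.51 and -6.36 on 14% and between -5.02 and -4.46 on 33%. On 60% it ran from -8.16 to -4.60, and on 23% and 42% it spread widely too. The term was thus not the contrast of the array sets alone. It called 3 of the 9 genes lower, against 5.66% of all genes (958). Hamp2 fell by 0.26 ± 0.03 per unit (limma adjusted p = 1.89e-07), Slc40a1 by 0.05 ± 0.01 (adjusted p = 0.00200) and Bmp6 by 0.06 ± 0.02 (adjusted p = 0.0299).

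Hamp2 ran from 4.72 to 9.91 (median 8.99) in the 24 Xist-above arrays and from 2.33 to 9.59 (median 5.57) in the 24 Y-above arrays. Slc40a1 ran from 7.77 to 9.23 (median 8.66) in the first set and from 6.94 to 8.90 (median 8.32) in the other. Bmp6 ran from 3.24 to 5.77 (median 4.93) and from 2.47 to 5.67 (median 4.50). The sets overlapped in each gene, and the medians were lower in the Y-above arrays. The call of Bmp6 was lost in 5 of 48 fits that left out 1 mouse (the mice Medium energy 33/20/47 mouse 1, High energy 5/20/75 mouse 2, Medium energy 23/38/38 mouse 3, High energy 23/38/38 mouse 3 and Medium energy 42/29/29 mouse 3, with adjusted p from 0.0531 to 0.0576). It was also lost with quantile normalization (adjusted p = 0.0636) and with the interquartile range (adjusted p = 0.184). Id1 (-0.06, adjusted p = 0.0573), Smad7 (-0.05, adjusted p = 0.0858) and Hamp (-0.12, adjusted p = 0.0981) did not pass. Without the Medium energy 14/29/57 mouse 5 of 9 passed, with Id1 (adjusted p = 0.0151) and Smad7 (adjusted p = 0.0482) added. The product of protein share and this value called 0 of 9 genes and 0% of all genes by limma (404 at an unadjusted p under 0.05), and for Hamp2 it was -0.02 ± 0.02 (unadjusted 0.287).

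Markers of non-parenchymal cells were read along the same axis. Of 14 endothelial markers 5 were called lower with the Y-linked minus Xist value (Cdh5, Kdr, Eng, Bmp2 and Stab2) and all 14 coefficients were negative, where 5.66% of all genes were called. Of 13 Kupffer markers 1 (Clec4f) was called lower and 13 were negative. Stab2 was called in 26 and Clec4f in 19 of 48 fits that left out 1 mouse. The summed log2 level of the 14 endothelial markers ran from 87.14 to 104.2 in the Xist-above arrays and from 78.50 to 102.9 in the Y-above arrays, and that of the 13 Kupffer markers from 77.52 to 103.5 and from 70.33 to 133.8. No marker of either list was below the filter. With a term for the spread of the arrays 0 markers of both lists were called by limma. Bmp6 and Slc40a1 are also made in these cells, and the part of the cell types in the fall of Bmp6, Slc40a1 and Hamp2 was not tested.

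The pathway around hepcidin was read through gene lists, by the same axis first, with the same 5.66% of all genes called as background. Esr1, the estrogen receptor, fell by 0.08 ± 0.01 per unit (limma adjusted p = 1.55e-05 in the model of 48 mice) and Egfr, a growth factor receptor, rose by 0.10 ± 0.02, both among 9 nuclear and hormone regulators of hepcidin of which 1 was called higher and 2 lower. Among 14 uptake genes Scara5, a ferritin receptor, rose by 0.23 ± 0.03, and 3 were lower. Abcg2, an exporter of porphyrins, rose by 0.09 ± 0.01 as the 1 call of 13 storage and release genes. Among 21 BMP ligands, receptors and signal proteins Bmp2, Bmp5 and the co-receptor gene Eng fell and the protease inhibitor gene Spint2 rose. Smad6, another inhibitor of the pathway, fell by 0.05 ± 0.01 as the 1 call of 8 further BMP targets. Of these, Bmp2, Bmp5, Eng and Smad6 lost their calls once the spread of the arrays was a term. So did Foxo1 among the regulators and Steap2 among the uptake genes counted as lower.

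For the protein slope the pathway lists held calls in both directions, to be read against the 7.01% of all genes. Among 24 genes of interleukin 6 signalling and the acute phase, 3 rose and 4 fell. The 3 were Orm1 (0.59 ± 0.12, adjusted p = 0.00297), Orm2 (0.60 ± 0.13) and Orm3 (0.57 ± 0.12), near-identical copies whose probe sets may share signal. The 4 were the kinase gene Jak1 (-0.08), the receptor gene Il6ra (-0.18), the pentraxin gene Apcs (-0.22) and Stat3 (-0.14), the last the factor that carries interleukin 6 signals to the hepcidin promoter. The median slope of the list was -0.06 against -0.0019 over all genes.

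Of 14 iron and heme uptake genes 2 fell, the mitochondrial iron importer gene Slc25a37 (-0.25 ± 0.06, adjusted p = 0.00546) and the heme transporter gene Slc48a1 (-0.13 ± 0.04). Of 13 storage and release genes Cp fell, which encodes the ferroxidase ceruloplasmin that works with ferroportin (-0.09 ± 0.02, adjusted p = 0.00404). Of 9 iron sensing genes Ireb2, which encodes an iron-responsive RNA-binding protein, rose (0.12 ± 0.04) and the hypoxia factor gene Epas1 fell (-0.20 ± 0.05). Of 9 heme synthesis genes Alas1, the rate-limiting enzyme of heme synthesis in liver, fell (-0.17 ± 0.05) and Tmem14c rose (0.12 ± 0.04). Of 11 iron-sulfur cluster genes Bola3 (0.14 ± 0.03) and Fdx1 (0.13 ± 0.04) rose. Of 21 BMP pathway genes Bmp4 fell (-0.16 ± 0.05), of 9 nuclear regulators Mtor fell (-0.22 ± 0.06), and 0 of 8 further BMP targets and 0 of 4 genes of the erythroid drive on hepcidin were called. With a term for the spread of the arrays, Orm3 was the one gene of these pathway lists still called (0.55, adjusted p = 0.0241). With the diet combination as a random block 9 of the 18 calls in these lists ended (Alas1, Apcs, Bmp4, Fdx1, Il6ra, Ireb2, Slc48a1, Stat3 and Tmem14c, adjusted p from 0.0528 to 0.0816). Left-out mice also ended several calls: Stat3 was called in 24 of 48 such fits, Bmp4 in 29, Tmem14c in 30, Slc48a1 in 32, Fdx1 in 35, Apcs in 37 and Ireb2 in 39.

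Cell markers along the protein axis gave 0 calls among 13 Kupffer and 14 endothelial markers, of which 0 and 1 had positive slopes, with median slopes of -0.11 and -0.08. The summed endothelial level ran from 88.48 to 104.2 on 5% protein and from 85.80 to 94.31 on 60%, and the Kupffer level from 70.33 to 93.96 and from 73.12 to 86.64. Of 11 stellate cell markers Col1a1 and Col1a2 fell, and of 10 hepatocyte markers Cps1 and Apoc3 rose, against 7.01% of all genes called. With a term for the spread of the arrays the calls of Col1a1 (adjusted p = 0.486), Col1a2 (0.578) and Apoc3 (0.248) ended. With the random block those of Col1a1 (0.0511) and Col1a2 (0.0781) ended. Col1a2 was called in 16 of 48 fits that left out 1 mouse, and not with the Y-linked minus Xist value (0.0572) or without the Medium energy 14/29/57 mouse (0.0609). The part of these cells in the slopes of Bmp6, Id1 and Slc40a1 was not tested.

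Next, the level of Hamp was set beside its regulators liver by liver. Because Hamp fell into separate groups of 45 and 3 livers, its relations were taken within the 45. There, Hamp was higher where the BMP arm was higher. Pearson r was 0.49 with Bmp6 (Spearman rho 0.47), 0.48 with Id1 (rho 0.49) and 0.47 with Smad7 (rho 0.50), each with a permutation adjusted p of 0.00605 for r and of 0.00600 or less for rho, over 15 relations computed (100000 permutations). Without the 2 livers farthest from the median of the gene on the x axis, r was 0.50, 0.46 and 0.44. Slc40a1 gave r = 0.34 (permutation adjusted p = 0.0638) and rho = 0.41 (adjusted p = 0.0184), Tfrc r = -0.29 (adjusted p = 0.121), Tfr2 r = -0.27 (adjusted p = 0.149) and Hfe r = 0.21 (adjusted p = 0.262).

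These relations were also read with terms that the livers share taken out. After protein, exchange, energy, the Y-linked minus Xist value and the interquartile range were taken out, r was 0.24 with Bmp6, 0.16 with Id1 and 0.25 with Smad7. Those terms were fitted over all 48 livers, the 3 with low Hamp among them, and r was then taken in the 45. No fit was made in the 45 alone, so the part of the 3 livers in these lower r was not tested. In the 14 livers of mice numbered over 300, r was 0.74, 0.60 and 0.77, and in the 31 numbered under 300 it was 0.38, 0.41 and 0.30. Within the 24 Xist-above arrays r was 0.43, 0.39 and 0.46, and within the 21 Y-above arrays 0.50, 0.49 and 0.42. None passed the correction within a set of arrays alone, where n was smaller.

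**Figure D4:**
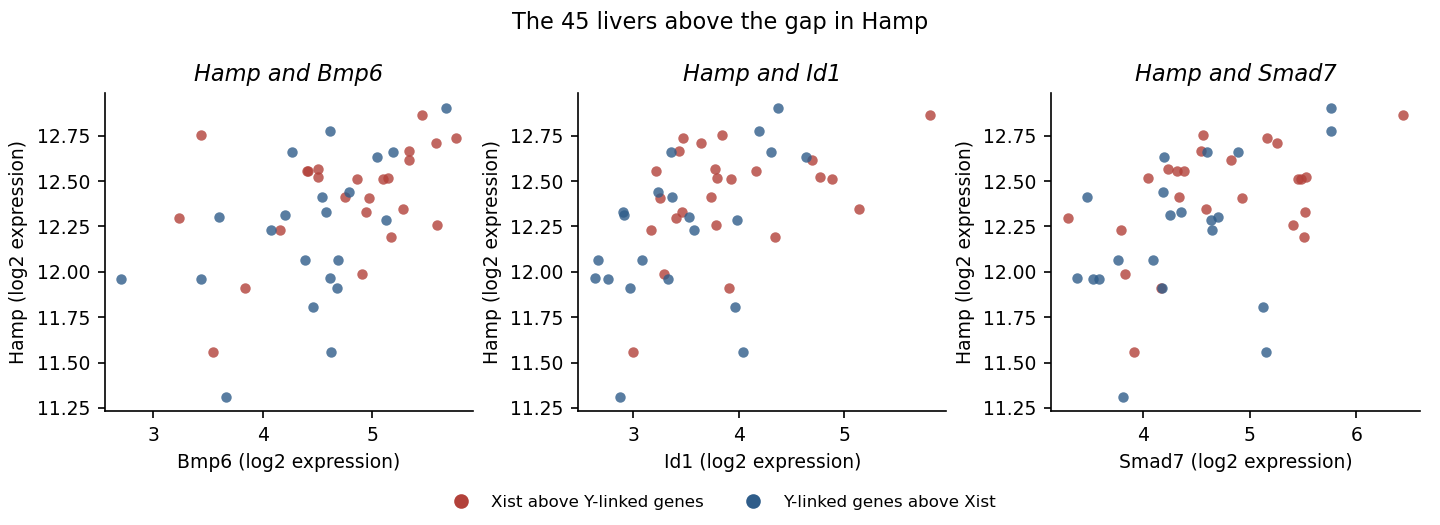
Log2 expression of Hamp against Bmp6, Id1 and Smad7 in the 45 livers above the gap in Hamp, with Xist-above arrays in red and Y-above arrays in blue. Hamp is higher where each of the 3 genes is higher, with Pearson r of 0.49, 0.48 and 0.47.

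Hamp2 did not share those relations past the threshold. Over the same 45 livers its r with Hamp was 0.36 (permutation adjusted p = 0.0509). Over 48 livers its r was 0.24 with Bmp6 (adjusted p = 0.174), 0.05 with Id1 (adjusted p = 0.764), 0.11 with Smad7 (adjusted p = 0.521) and 0.17 with Slc40a1 (adjusted p = 0.343). The difference between the relations of Hamp and of Hamp2 was not tested.

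Genes with the pattern most like each hepcidin gene were taken as the 5 highest Pearson r over 48 livers, given as a description. For Hamp they were Apoa5, an apolipoprotein of triglyceride transport (0.78), Efemp1 (0.63), the BMP-responsive factor gene Atoh8 (0.56), Cntfr (0.55) and Ugt2b34 (0.55). Within the 45 livers above the gap these fell to 0.65, 0.22, 0.41, 0.12 and 0.33, so Efemp1 and Cntfr resembled Hamp mostly through the 3 low livers. For Hamp2 they were the esterase gene Bche (0.78), Rcan2 (0.77), the conjugating enzyme genes Gstt3 (0.76) and Sult2a1 (0.76), and A1bg (0.75). Within the Xist-above arrays those were 0.54, 0.72, 0.79, 0.65 and 0.66, and within the Y-above arrays 0.59, 0.40, 0.62, 0.36 and -0.04. A1bg thus followed Hamp2 in the Xist-above set and between the sets, and not in the Y-above set.

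The 3 livers with low Hamp differed from each other in much of the rest of the set. In all 3, Hamp2 and Bmp6 lay below the median of the other 45 livers (7.03 and 4.62) and Tfrc above it (5.03). In High energy 14/29/57 mouse 2 the Bmp6 value of 4.43 was close to that median. The share of all genes on the same side in all 3 was not counted. All 3 were Y-above arrays, where the medians of Hamp2 and Bmp6 were lower, as given above. In Low energy 60/20/20 mouse 1, Hamp at 2.28 came with the lowest Bmp6 (2.47), Id1 (2.15) and Slc40a1 (6.94) of the 48 livers and with Tfrc at 7.40, against a highest value of 7.02 in the other 45. Hamp2 at 4.74 was within the range of the others. Its summed endothelial markers (85.80) ranked 2 and its stellate markers (49.71) ranked 1 from the lowest of 48, while its erythroid markers (11.09) ranked 46. Several acute phase genes were high, with Hp (12.69) and Orm2 (10.46) at rank 47, Orm1 (10.96) and Fgg (12.60) at rank 46 and Lcn2 (9.35) at rank 44. Socs3 (4.81) was at rank 46 too. Saa3 (6.12) stood lower, at rank 37. The part of these cells and genes in its low Bmp6 and Hamp was not tested.

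In Medium energy 14/29/57 mouse 1, the only mouse of its combination, Hamp at 5.98 came with the lowest Hamp2 (2.33) and Tfr2 (7.73) and the highest Tfrc (7.52) and Hfe (8.85). Its Id1 (4.89) and Smad7 (5.40) were in the upper part of the range and its Bmp6 (3.98) in the lower part. Acute phase genes did not move as one in this liver. Socs3, read with them, was the highest of all (5.24, with at most 4.90 in the 45 livers above the gap). Saa3 was the highest of all (12.21, with at most 8.40 in the 45 livers above the gap), Lcn2 was the highest by little (9.58, with up to 9.56 in those 45), Orm1 (10.21) and Hp (12.23) ranked 30 and 34 of 48 from the lowest, and Fgg (11.77) was the lowest of all. It also held the highest summed Kupffer markers of all livers (133.8, median of all 84.26) and the lowest summed hepatocyte markers (95.28, median 101.8). Its erythroid sum was the highest (18.01, median 7.88), and its endothelial and lymphocyte sums ranked 47 of 48. The part of these cells in its values, Tfrc among them, was not tested.

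In High energy 14/29/57 mouse 2, Hamp at 6.02 came with Hamp2 at 3.91, the lowest Hfe (6.33) and Smad7 (3.24) and an Id1 of 2.20, while Bmp6 (4.43), Tfr2 (9.48), Tfrc (5.51) and Saa3 (5.08) were within the range of the other 45. The other 3 mice of that combination had Hamp at 12.51, 11.96 and 12.75. Low Hamp thus came with low Id1 in 2 livers and high Id1 in 1. Serum iron, blood loss and sickness were not recorded in the sources used here.

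**Figure D5:**
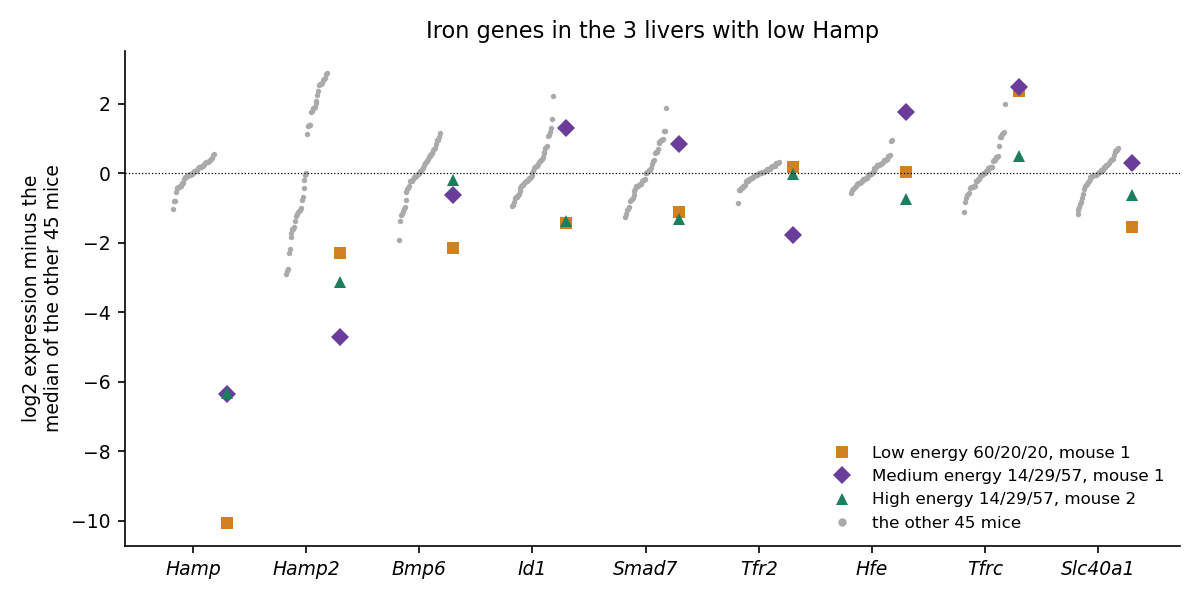
Log2 expression of the 9 genes minus the median of the other 45 livers, with those 45 in grey and the 3 livers with low Hamp as an orange square, a purple diamond and a green triangle. Hamp lies 6 units or more below the median in all 3. Hamp2 and Bmp6 also lie below it in all 3 and Tfrc above it, some of them within the grey range. Id1, Smad7, Tfr2, Hfe and Slc40a1 part between them. The share of all genes on the same side in all 3 was not counted.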

How the data were processed

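Values were log2 expression per probe set and array, deposited by the authors in a series table and used unchanged; how they were background-corrected and normalized is not stated in the sources at hand, and the log2 scale was read from their range. Probe sets took gene names from the platform annotation (23521 had 1 symbol). Sequences are RefSeq's for GRCm38.p6, which need not be the build behind the probe sets.

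Tests ran in limma 3.58.1 under R 4.3.3 (lmFit and trended eBayes, two-sided, Benjamini-Hochberg over the 16926 genes whose mean passed the 30th percentile, threshold 0.05). The slopes and high minus medium energy came from 1 model of protein, carbohydrate-fat exchange and energy, the 60/20/20 contrast from a mean per combination, and the 5% step from protein as a factor. Simulated data with known slopes were used to check the fit. Correlations used SciPy 1.17.1 and NumPy 2.4.6. Slope differences numbered 15 pairs because Trf had no value of its own. Nothing but the labels separates mice of a combination, and the number of arrays limits precision.

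The members and lists were chosen with earlier results of these data known. Named genes were the members, up to 4 genes per list by the p of the protein slope, and 5 genes most like each hepcidin gene. Il6ra, Apcs, Stat3, genes named along the Y-linked minus Xist axis and those named in the 3 low livers were picked after their values were seen, as were that axis and the array sets. The closing section gives the alternatives.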

Additional observations from a re-analysis of the deposited data

Results flagged for a closer look

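In groups of 4 to 10 mice, a value was picked out when its gap to the nearest mouse was large against the range of its group (Dixon's 95% limit). Of 81 groups of values tested, 9 gave such a value, and chance gives about 1 in 20.

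Hamp was picked out at 2.28 among the 6 livers on 60% protein (nearest 12.23) and at 6.02 among the 4 of High energy 14/29/57 (nearest 11.96). The single Medium energy 14/29/57 liver was picked out among the 9 on 14% protein for Tfr2 at 7.73 (nearest 9.38) and Hfe at 8.85 (nearest 7.36). Hamp2 was picked out at 6.04 among the 5 livers on 42% protein (nearest 8.90), where it was the only Y-above array. Tfrc was picked out at 4.20 in High energy 14/29/57 mouse 1 (nearest 5.37) and at 6.20 in Medium energy 23/38/38 mouse 2 among the 9 on 23% protein (nearest 5.17). Id1 was picked out at 5.14 in High energy 23/65/12 mouse 2 among those 9 (nearest 3.80), and Tfr2 at 9.13 in High energy 60/20/20 mouse 3 (nearest 9.49).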

How the results depend on the processing

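Of 4444 values of single genes tried under other settings, 29 changed direction when 1 mouse was left out and 45 under another setting, and 0 of these were past the threshold in either fit. No paired analysis was possible because the labels carry no replicate numbers, and those used here follow accession order.

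Of the 9 genes, the protein slope called 1. It called 0 with the interquartile range, 3 with array weights (Hamp2, Hfe and Slc40a1), 0 at 14% protein or more, 0 with the random block and 0 in each array set, and 0 to 2 when 1 mouse was left out. Protein for carbohydrate called 0, but 1 with the Y-linked minus Xist value and 3 with weights (0 to 1 with 1 mouse left out). Protein for fat called 1, but 0 with the interquartile range, without the Medium energy 14/29/57 mouse, on high energy, at 14% or more and with the block (0 to 1). The 5% minus 14% step called 0, but 1 in the Xist-above arrays. The Y-linked minus Xist value called 3, and 5 without the Medium energy 14/29/57 mouse (2 to 5). Relations called were 3, with 5 under quantile normalization, 5 under centring, 0 within each array set and 3 to 5 with 1 mouse left out. The 15 slope differences gave 8 calls, 6 to 11 with 1 mouse left out, and were not fitted at 14% protein or more or with the block.

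Over all genes, protein called 1187, against 113 with the interquartile range, 133 with that and the Y-linked minus Xist value, 4301 with weights, 14 at 14% or more, 630 with the block, 50 and 14 in the Xist-above and Y-above arrays, and 588 to 3004 with 1 mouse left out. Protein for carbohydrate called 263, against 26, 29, 3028, 2 and 83 in the same order without the array sets, 583 with mouse number, 497 without the Medium energy 14/29/57 mouse, 133 on high energy and 111 to 1633 with 1 mouse left out. Protein for fat called 719, against 85, 113, 3160, 5 and 430, and 224 to 1724. Carbohydrate for fat called 0, with 2 by weights and 1 on high energy. High minus medium energy called 0, with 2 given the Y-linked minus Xist value, 4 with both terms and 0 to 3 with 1 mouse left out. Low minus high energy called 0, with 12 by weights and 0 to 5. The 5% step called 63, against 592 by weights, 126 without the Medium energy 14/29/57 mouse, 30 and 8 in the array sets, and 42 to 126. The Y-linked minus Xist value called 958, against 557 with the interquartile range, 1507 without that mouse and 628 to 1507.

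Values that changed sign were these. With the interquartile range they were Bmp6 0.018, Smad7 0.012, Tfr2 0.010 for the protein slope, Smad7 0.045 for protein for fat, Smad7 0.22 for low minus high energy, Bmp6 -0.16, Slc40a1 -0.090, Smad7 -0.038, Tfr2 -0.0050 for the 5% minus 14% step. With the interquartile range and the Y-linked minus Xist value they were Bmp6 0.0057, Smad7 0.0066, Tfr2 0.0090 for the protein slope, Smad7 0.041 for protein for fat, Smad7 0.16 for low minus high energy, Bmp6 -0.068 for the 5% minus 14% step. With array weights they were Hamp -0.036 for the protein slope, Bmp6 -0.0089, Tfr2 -0.027, Tfrc 0.060 for protein for fat, Slc40a1 -0.0080 for carbohydrate for fat, Hamp -0.016, Smad7 0.051, Tfr2 -0.069 for high minus medium energy, Tfr2 -0.047 for the 5% minus 14% step. Without the Medium energy 14/29/57 mouse they were Hamp -0.0012 for the protein slope, Tfr2 -0.035, Tfrc 0.0097 for protein for fat, Tfr2 -0.0042 for carbohydrate for fat, Hamp -0.086, Hfe 0.016, Tfr2 -0.091 for high minus medium energy, Tfr2 -0.060 for the 5% minus 14% step. In the Y-above arrays they were Tfrc -0.069 for the protein slope, Hamp2 0.013, Hfe 0.029, Tfrc -0.22 for the 5% minus 14% step. At 14% protein or more they were Id1 0.020, Smad7 0.055 for protein for fat. With centred arrays they were Tfr2 -0.0066 for protein for fat. On high energy diets they were Tfr2 -0.025 for protein for fat, Hamp2 -0.024 for carbohydrate for fat. In the Xist-above arrays they were Hamp -0.056, Slc40a1 -0.019, Tfr2 -0.043 for the 5% minus 14% step. With quantile normalization they were Tfrc -0.017 for the 5% minus 14% step.

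With 1 mouse left out, the values that changed sign ran for the protein slope Hamp -0.0012 to 0.19, Tfr2 -0.033 to 0.0089, Tfrc -0.016 to 0.056. They ran for protein for fat Tfr2 -0.035 to 0.021, Tfrc -0.080 to 0.0097. They ran for carbohydrate for fat Slc40a1 -0.0025 to 0.036, Tfr2 -0.0042 to 0.037. They ran for protein for carbohydrate Hamp -0.10 to 0.032. They ran for high minus medium energy Hamp -0.086 to 0.58, Hfe -0.18 to 0.016, Id1 -0.041 to 0.22, Slc40a1 -0.033 to 0.092, Smad7 -0.18 to 0.070, Tfr2 -0.091 to 0.089. They ran for low minus high energy Hamp2 -2.27 to 0.22, Hfe -0.040 to 0.41, Id1 -0.64 to 0.047. They ran for the 5% minus 14% step Tfr2 -0.060 to 0.13, Tfrc -0.069 to 0.26.

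The cause of these changes was not tested. Hamp and Hamp2 are neighbouring copies whose printed upstream stretches were 90.8% identical. Their transcripts were not compared, and whether their probes read each other's RNA was not tested. Energy and protein are not crossed in full, and 5 mice carry the low energy level.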
